A study of Rattus norvegicus with 16 samples.

Results

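The 9 genes described here encode the membrane and secreted proteins that start, restrain and dissolve clots at the vessel wall: F3, Tfpi, Thbd, Procr, F2r, Vwf, Plat, Plau and Plaur. They were taken by name because nephrotic syndrome, heavy protein loss in urine, is a state in which clots form easily. The rule uses no measured value, although earlier results of these data were known when the genes were chosen. All 9 were found, 1 row each, among the 13222 genes of the table, and all 9 passed the low-level filter that had been applied to it. The samples were glomeruli, the filtering tufts of the kidney, sieved on day 11 from male Wistar rats of about 175 g, whose age is not given. A control group labelled healthy was set beside 3 groups that received puromycin aminonucleoside (PAN), an intravenous toxin that injures podocytes, the epithelial cells of the filter. One of these is labelled PAN alone and is the injury model. The others were given pioglitazone, a thiazolidinedione agonist of the nuclear receptor PPARγ, or GQ-16, a partial agonist of the same receptor, by daily gavage. A sham vehicle is named without saying whether the control rats received it, and no doses are given. Each group held 4 rats, and nothing in the labels ties a rat of one group to a rat of another. That each library is a separate animal rests on the labels.

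Tissue factor, encoded by F3, starts clotting when it meets factor VII in blood, and tissue factor pathway inhibitor, encoded by Tfpi, blocks that step. The clotting enzyme thrombin makes fibrin and also signals to cells by cleaving its receptor PAR1, the product of F2r. On endothelium thrombin is captured by thrombomodulin (Thbd), which turns it into an activator of protein C, and the endothelial protein C receptor (Procr) presents protein C to that complex. Von Willebrand factor (Vwf) tethers platelets and carries factor VIII. Fibrin is removed by plasmin, which is made from plasminogen by tissue-type (Plat) and urokinase-type (Plau) activators. The urokinase receptor (Plaur) holds urokinase at the cell surface and is also known for its part in podocyte signalling.

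Totals ran from 13351137 to 21977663 reads per library, and every group's range overlapped the others. The share of mitochondrial reads was above 30% in 3 libraries, control rats 2 and 3 and GQ-16 rat 2, and all 4 PAN rats were lower than all 4 control rats. Values are counts per 1000000 reads of the library (CPM), so a smaller mitochondrial share lifts all other genes. The typical (median) gene was shifted by 0.28 on the log2 scale in PAN, 0.21 in pioglitazone and 0.17 in GQ-16 rats relative to control. Relative to PAN the shift was -0.09 in the pioglitazone and -0.11 in the GQ-16 group. Changes are therefore given also under median-ratio scaling, which sets the typical gene to no change. Library numbers of 25 or higher belonged to 3 of 4 PAN rats, 1 of 4 rats with each drug and 0 of 4 control rats, so the comparison of PAN alone with control goes largely with library number. PAN rat 1 stood apart in connective tissue genes. The summed level of the fibroblast markers Col1a1 and Pdgfra was 1789 CPM in this rat and from 104 to 277 CPM in the other PAN rats, beside 16.5 to 71.1 CPM in control and 178 to 912 CPM with GQ-16. All 8 podocyte markers were measured. Their summed level ran from 2143 to 8622 CPM in control and from 6744 to 10154 CPM in PAN. In whole glomeruli fewer cells of a type cannot be told apart from less RNA per cell.

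In PAN against control, F2r rose and Procr passed the test by a narrow margin, while the other 7 genes did not pass. The test was a limma model fitted to all 16 libraries on log2(CPM + 1), with p-values adjusted by the Benjamini-Hochberg method over all 13222 genes and genes under 0.05 taken as changed. Both calls were in the direction of higher levels in PAN. The count of 2 of 9 stands beside 22.3% of all genes changed in the same comparison, so it is near the background. The median log2 change of the 9 genes was 0.0045, and -0.297 under median-ratio scaling. Under that scaling 1 of 9 was changed, F2r, beside 8.63% of all genes. All PAN rats were higher than all control rats for 3 of the 9 genes, Procr, Tfpi and F2r, beside 22.4% of all genes. None of the 9 was lower without overlap, beside 0.87% of all genes.

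**Figure D1:**
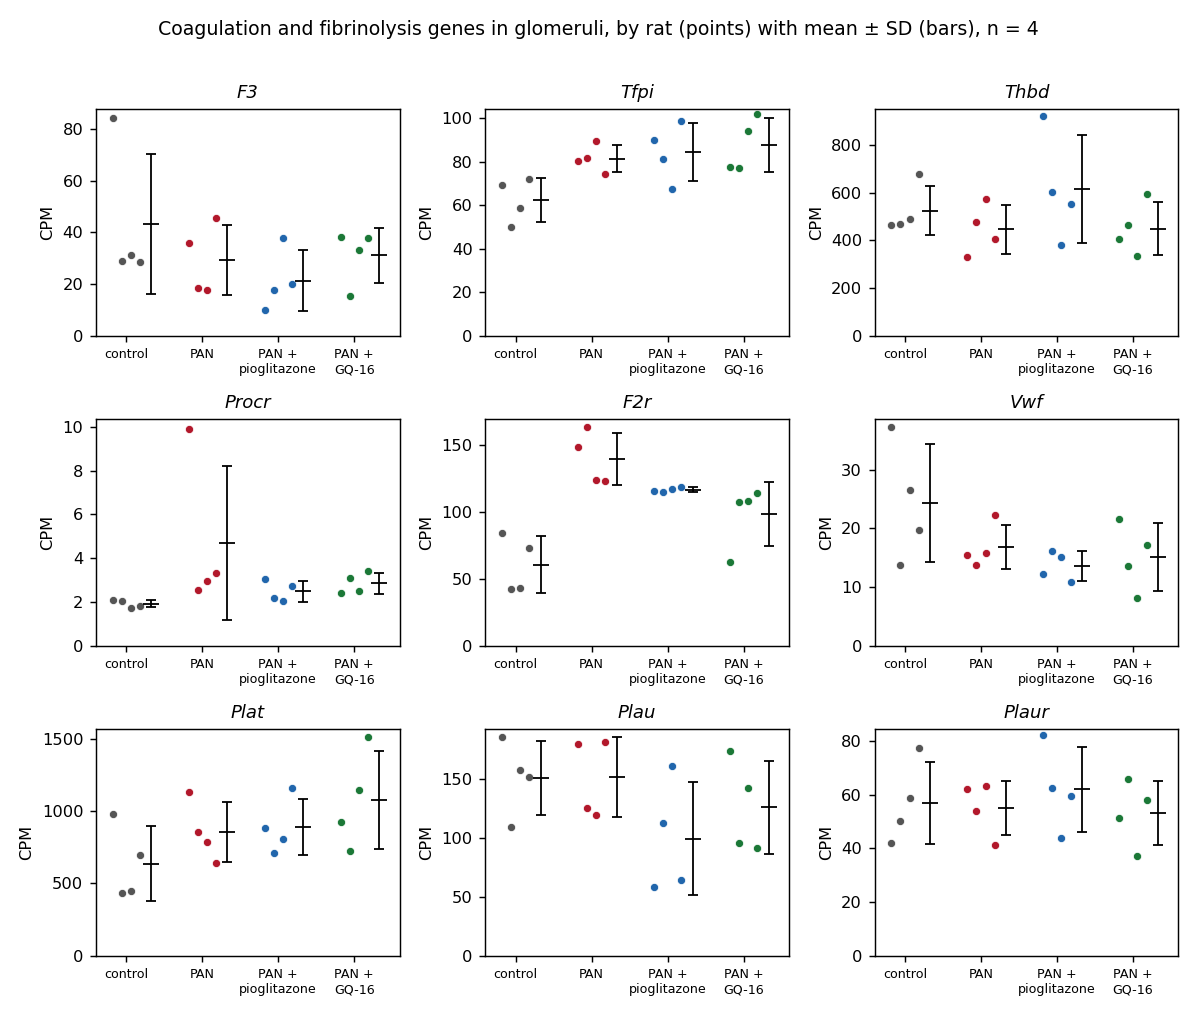
Level of each of the 9 genes in CPM (linear axis from 0), with 1 point per rat and the mean ± SD of the 4 rats of each group as a bar beside them. F2r in PAN lies between 123 and 163 CPM and above every control rat, whereas F3, Thbd, Vwf, Plat, Plau and Plaur overlap between PAN and control.

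The thrombin receptor gene F2r (ENSRNOG00000048043) was 84.1, 42.1, 42.9 and 72.9 CPM in the control rats. It was 148, 163, 124 and 123 CPM in the PAN rats. The lowest PAN rat was thus well above the highest control rat. Control rats averaged 60.5 ± 21.3 CPM and PAN rats 140 ± 19.6 CPM (SD, n = 4). The log2 change was 1.25 (SE 0.222, adjusted p by limma 0.00208), and 0.95 under median-ratio scaling (adjusted p by limma 0.00596). The 2 low control values came from the control rats with the largest mitochondrial shares. With any single rat left out the change ran from 1.1 to 1.43 and its adjusted p from limma stayed between 0.000765 and 0.0112. With a term for library number (25 or higher against the rest) it was 1.1 (adjusted p by limma 0.0375). Its call was lost in 3 of 12 alternatives. When only libraries under 30% mitochondrial reads were used, which leaves 2 control rats, the change was 0.82 (adjusted p by limma 0.0894). The size was 1.08 within library numbers of 15 or lower, where the adjusted p of 0.374 from limma assumes that the single PAN rat left varies like the other groups. It was 0.89 (adjusted p by limma 0.054) with the covariate and median-ratio scaling together.

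Genes of other cells moved with F2r. All 6 markers of mesangium and smooth muscle, the contractile support cells of the glomerulus, were higher in PAN past the same threshold. Control rats had 254 to 641 CPM of them in sum and PAN rats 969 to 1753 CPM. The sums were 868 to 1069 CPM under pioglitazone and 511 to 906 CPM under GQ-16. Of 5 leukocyte markers 3 were also higher, Csf1r, Cd68 and C1qa, which mark macrophages, and the summed level ran from 106 to 151 CPM in control and from 151 to 429 CPM in PAN. Of the 8 endothelial markers measured, Eng alone was changed, with a median log2 change of -0.20 over the 8. The part of these cells in the rise of F2r was not tested.

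The receptor gene Procr (ENSRNOG00000019330) was the least abundant of the 9. It had 27 to 40 reads in each control library, against 43 to 187 in PAN. Control rats had 2.07, 2.03, 1.74 and 1.81 CPM. PAN rats had 9.93, 2.56, 2.93 and 3.33 CPM. Every PAN rat was above every control rat, but PAN rat 1 was far above the other 3. The log2 change was 0.80 (SE 0.265, adjusted p by limma 0.042). Under median-ratio scaling it was 0.58 (adjusted p by limma 0.178), and the groups overlapped, with control rat 2 at 2.74 CPM above PAN rats 2 and 3. Without PAN rat 1 the change was 0.43 (adjusted p by limma 0.0917). The call was also lost without control rat 2, 3 or 4 (adjusted p by limma 0.104, 0.116 and 0.0569), and in 9 of 11 alternatives that kept the gene. PAN rat 1 was the rat with the high fibroblast markers and had the highest leukocyte sum, 429 CPM, beside 151 to 213 CPM in the other PAN rats. It also had the highest sums of the PAN rats for mesangium and smooth muscle, 1753 CPM, and for podocytes, 10154 CPM. GQ-16 rats 3 and 4 had fibroblast sums of 912 and 824 CPM with Procr at 2.51 and 3.41 CPM. The part of these cells in the Procr value was not tested.

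Promoter windows from RefSeq (build GRCr8), which hold the 250 bases before the gene start, were found for 5 of the 9 genes: F2r, Procr, Plaur, Tfpi and Plau. After the results of the 9 genes were known, the windows were searched on both strands for 6 motifs. These were the AP-1 heptamer TGACTCA, which binds Fos and Jun proteins, the Sp1 core GGGCGG, the TATA box TATAAA, the SMAD motif CAGACA, the nuclear receptor half-site AGGTCA and the PPAR direct repeat, which is that half-site repeated after 1 base of any kind. With 1 window per gene, the AP-1 heptamer was in 3 of 5, beside 3.98% of 27457 windows of all genes. The Sp1 core was in 2 of 5, F2r and Plau, beside 32.4%, and also in a second window of Tfpi, which makes 3 of 5 genes. The SMAD motif was in 1 of 5, Plaur, beside 16.9%. The TATA box, the half-site and the PPAR repeat were in 0 of 5, beside 13.1%, 13.7% and 0.0546%. The AP-1 heptamer is 1 of 6 motifs tried, and no test was made. The windows of F2r and Procr are printed because these 2 genes were called in PAN, and that of Plaur because it holds the same heptamer and was not called. Capitals mark the AP-1 heptamer and the Sp1 core, on either strand, and the gene starts after the last base.
F2r, chr2:28620580-28620829, minus strand: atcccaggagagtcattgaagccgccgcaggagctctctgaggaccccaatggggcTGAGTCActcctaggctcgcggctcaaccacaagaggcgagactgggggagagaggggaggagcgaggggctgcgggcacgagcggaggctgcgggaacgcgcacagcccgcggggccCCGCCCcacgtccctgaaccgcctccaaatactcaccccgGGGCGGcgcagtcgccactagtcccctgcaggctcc
Procr, chr3:164714477-164714726, plus strand: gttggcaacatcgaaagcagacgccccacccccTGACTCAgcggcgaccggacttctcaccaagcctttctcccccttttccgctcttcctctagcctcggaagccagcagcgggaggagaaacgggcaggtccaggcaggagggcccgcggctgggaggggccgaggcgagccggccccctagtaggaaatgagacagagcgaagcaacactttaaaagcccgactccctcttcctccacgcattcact
Plaur, chr1:89181113-89181362, plus strand: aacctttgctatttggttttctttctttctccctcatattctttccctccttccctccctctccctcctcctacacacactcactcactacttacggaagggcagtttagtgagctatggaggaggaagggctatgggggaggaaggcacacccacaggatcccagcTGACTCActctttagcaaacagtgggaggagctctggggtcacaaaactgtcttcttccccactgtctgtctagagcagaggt
Counted back from the start of the gene, the heptamer began at -194 in F2r, -217 in Procr and -83 in Plaur, and F2r alone of these 3 also held Sp1 cores. A match of letters is not a measured binding site.

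Of the genes that start clotting, F3 (ENSRNOG00000011800) varied more between rats than between groups. It was 84.1, 29.0, 31.4 and 28.4 CPM in control and 35.9, 18.3, 17.6 and 45.5 CPM in PAN. Control rat 1 was far above the other 3, and the rest overlapped with PAN. Markers of kidney tubule, fragments of which can remain among sieved glomeruli, had their highest sums in control rat 1 and PAN rat 4. These rats also had the highest F3 of their groups. The sum was 6947 CPM in control rat 1, beside 4109 to 5185 CPM in the other controls, and 7252 CPM in PAN rat 4. Among the other PAN rats F3 did not follow the sum. Rat 1, with F3 at 35.9 CPM, had the lowest sum, 2402 CPM. Rats 2 and 3, with F3 at 18.3 and 17.6 CPM, had sums of 3915 and 4161 CPM. Of the 7 tubule markers 2, Umod and Slc12a3, fell in PAN and 0 rose. Their part in the F3 values was not tested. The log2 change was -0.50 with a 95% interval from -1.41 to 0.42 (adjusted p by limma 0.379), and -0.79 under median-ratio scaling. The interval includes both a fall of more than 2-fold and a small rise. Its inhibitor Tfpi (ENSRNOG00000005039) was 69.3, 50.0, 58.5 and 72.1 CPM in control and 80.2, 81.6, 89.4 and 74.3 CPM in PAN. All PAN rats lay above all control rats, but the log2 change of 0.39 (adjusted p by limma 0.0619) did not pass, and it was 0.09 under median-ratio scaling, where the groups overlapped. Without control rat 1 or 4 it passed (adjusted p by limma 0.0384 and 0.0385).

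Thbd (ENSRNOG00000004687), the thrombin-binding partner of the protein C pathway, was 465, 469, 488 and 677 CPM in control and 331, 476, 574 and 406 CPM in PAN. The groups overlapped. Its log2 change was -0.24 with a 95% interval from -0.78 to 0.29 (adjusted p by limma 0.458), and -0.55 under median-ratio scaling (adjusted p by limma 0.218). Vwf (ENSRNOG00000019689) was 37.2, 13.7, 26.6 and 19.7 CPM in control and 15.5, 13.7, 15.8 and 22.4 CPM in PAN. Control rat 1 was again the highest and control rat 2 was as low as the lowest PAN rat. The log2 change was -0.44 (adjusted p by limma 0.247) and -0.72 under median-ratio scaling (adjusted p by limma 0.132).

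Neither plasminogen activator passed the test. Plat (ENSRNOG00000019018) was 977, 432, 444 and 693 CPM in control. It was 1133, 857, 784 and 639 CPM in PAN. Control rats 2 and 3 were lowest and the groups overlapped. Its log2 change of 0.47 (adjusted p by limma 0.206) was 0.17 under median-ratio scaling, and 0.02 when the libraries above 30% mitochondrial reads were left out. Plau (ENSRNOG00000010516) was 186, 110, 157 and 151 CPM in control and 180, 125, 120 and 182 CPM in PAN. The log2 change was close to 0, at 0.0045 with a 95% interval from -0.62 to 0.63, and the sign turned under median-ratio scaling (-0.30). Plaur (ENSRNOG00000037931) was 41.9 to 77.4 CPM in control and 41.1 to 63.3 CPM in PAN. Its log2 change was -0.03 (95% interval from -0.50 to 0.44, adjusted p by limma 0.916), and -0.33 under median-ratio scaling (adjusted p by limma 0.418). Changes of about 1.5-fold in either direction lie at the ends of the Plau interval.

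**Figure D2:**
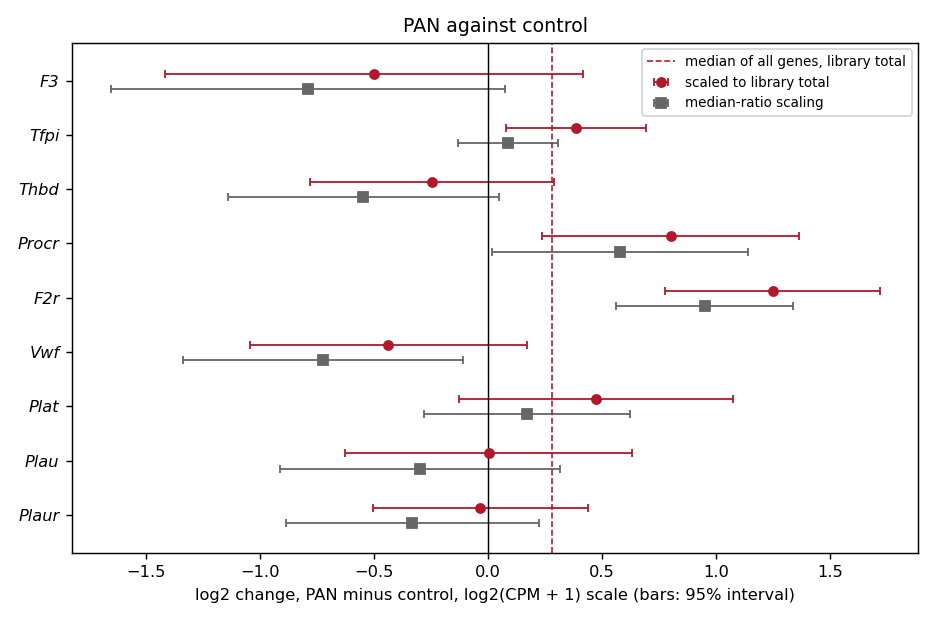
Log2 change between PAN and control (difference of group means of log2(CPM + 1), 4 rats a group) for the 9 genes, with 95% intervals as bars, scaled to the library total (circles) or by median ratios (squares). The dashed line is the median of all genes, 0.28, and F2r at 1.25 lies to the right of it with an interval that does not reach it.

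Other genes of the pathway were counted in 4 lists. In fibrinolysis, 4 of 6 measured genes of 10 listed rose in PAN and 0 fell, with a median log2 change of 0.93 beside 0.28 over all genes. Among inhibitors of clotting 3 of 6 measured rose, with a median of 0.18. Among clotting factors and their processing enzymes 1 of 7 rose, and among thrombin receptors and platelet adhesion genes 1 of 5. Under median-ratio scaling the medians of fibrinolysis and clotting inhibitors were 0.63 and -0.12, beside -0.0032 over all genes. The counts in the 4 lists were then 4, 2, 1 and 0. The shares stand beside 21.7% of all genes called higher and 7.12% under median-ratio scaling.

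Thbs1, which encodes thrombospondin 1, rose from 150 ± 72.2 to 392 ± 71.6 CPM (SD, n = 4), a log2 change of 1.47 (adjusted p by limma 0.00228). Lrp1, an endocytic receptor that clears protease and inhibitor complexes, averaged 161 ± 45.7 CPM in control and rose to 394 ± 105 CPM (log2 change 1.29, adjusted p by limma 0.00326). Anxa2, a surface receptor for plasminogen and Plat, rose by 0.74 on the log2 scale (adjusted p by limma 0.0042). The rise was 0.44 under median-ratio scaling (adjusted p by limma 0.0278), and the call was lost with quantile normalization (0.41, adjusted p by limma 0.0514). S100a10, the partner of annexin A2, rose by 1.12 (adjusted p by limma 0.0217), with groups that overlapped. That call was lost without control rat 2 or 3 or PAN rat 1 or 2 (adjusted p by limma 0.0911, 0.0899, 0.067 and 0.0609). Under median-ratio scaling the log2 changes of Thbs1, Lrp1 and S100a10 were 1.16, 0.99 and 0.83. Plgrkt and Serpinf2, a plasminogen receptor and the plasmin inhibitor, had log2 changes of 0.10 and -0.02 (adjusted p by limma 0.597 and 0.972).

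Among the inhibitors of clotting, Serpine2, a serpin that blocks thrombin and urokinase, rose from 18.5 ± 6.49 to 60.3 ± 17.5 CPM (SD, n = 4), a log2 change of 1.67 (adjusted p by limma 0.000735) and 1.38 under median-ratio scaling. Anxa5 and Pros1, the phospholipid-binding annexin A5 and protein S, the cofactor of activated protein C, rose by 0.79 and 0.72 on the log2 scale (adjusted p by limma 0.00575 and 0.0217). Under median-ratio scaling their changes were 0.49 and 0.42, and Pros1 lost its call (adjusted p by limma 0.143). Serpinc1, Proc and Proz, genes of antithrombin, protein C and protein Z, had log2 changes from -0.45 to -0.36 and did not pass. These and the pair above are the remaining measured genes of both lists, outside the naming rule and named after their values were seen. Ggcx, the vitamin K dependent carboxylase, rose by 0.73 (adjusted p by limma 0.0144), and by 0.44 under median-ratio scaling. Entpd1, an enzyme that degrades the platelet activator ADP, rose by 0.55 (adjusted p by limma 0.0361) and lost its call under median-ratio scaling (adjusted p by limma 0.389). Of these calls 3 were also lost when single rats were left out, which leaves fewer rats to test. With any rat left out the log2 changes ran from 0.62 to 0.86 for Ggcx, 0.54 to 0.82 for Pros1 and 0.48 to 0.66 for Entpd1. Ggcx lost its call without control rat 2 or 3 or PAN rat 1 (adjusted p by limma 0.064, 0.0576 and 0.0531). Pros1 lost its call without control rat 2 or 3 or PAN rat 1 or 2 (adjusted p by limma from 0.0509 to 0.087). Entpd1 lost its call without control rat 2 or 3 or PAN rat 1, 2 or 3 (adjusted p by limma from 0.0742 to 0.122). With a covariate for library number Ggcx, Anxa5, Pros1, Lrp1, Anxa2, S100a10 and Entpd1 lost their calls. Their log2 changes were then 0.50, 0.61, 0.45, 1.06, 0.61, 0.80 and 0.39. Among libraries under 30% mitochondrial reads, 0 of the 9 genes that the naming rule took from these lists were called, with adjusted p-values from limma between 0.0521 and 0.454. The share of all genes called in that fit is not given here. Of the platelet markers, 3 of 6 were measured, Pf4, Itga2b and Gp9, and 0 were changed. Their summed level was 16.7 to 26.1 CPM in control and 19.4 to 24.2 CPM in PAN.

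**Figure D3:**
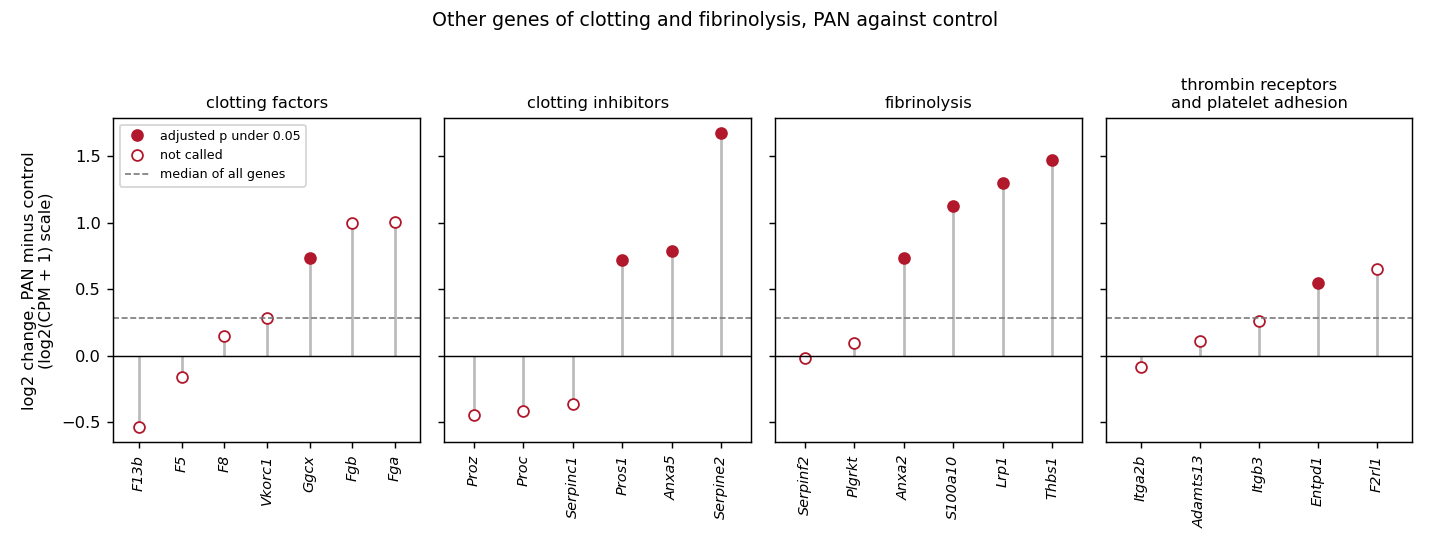
Log2 change between PAN and control for each measured gene of the 4 lists, with filled circles for a limma adjusted p under 0.05 and open circles otherwise; the dashed line is the median of all genes, 0.28. Serpine2 at 1.67 is the highest point, and all filled circles lie above the dashed line.

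The 2 drugs are compared with PAN alone, which asks how treatment altered the injured glomerulus. None of the 9 genes passed the test for either drug. For pioglitazone 0 of 9 passed limma's test, beside 0% of all genes, with 0 called by voom and 1 gene, Plau, at an unadjusted p under 0.05, beside 3.74% of all genes at that p. For GQ-16 it was again 0 of 9, beside 0.0151% of all genes, with 0 called by voom and 1 gene, F2r, at an unadjusted p under 0.05, beside 8.27%. The same 4 PAN rats stand behind both comparisons. For each drug 1 of the 9 genes had no overlap with PAN, F2r, which was lower, beside 2.36% of all genes lower without overlap for pioglitazone and 3.47% for GQ-16. Under median-ratio scaling F2r overlapped in both.

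F2r was 116, 115, 117 and 119 CPM with pioglitazone, the narrowest group of all, and 62.4, 107, 108 and 114 CPM with GQ-16. GQ-16 rat 1 was far below its group and within the control range. The log2 change against PAN was -0.25 with pioglitazone (95% interval from -0.72 to 0.22, adjusted p by limma 0.916). With GQ-16 it was -0.53 (95% interval from -1.0 to -0.06, adjusted p by limma 0.539), and -0.41 under median-ratio scaling. The order of the means was PAN, pioglitazone, GQ-16, control. Between neighbours in that order no limma adjusted p was under 0.05.

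Plau was 58.5, 113, 161 and 64.4 CPM with pioglitazone and 174, 96, 142 and 91.2 CPM with GQ-16. Pioglitazone rats 1 and 4 were below every PAN and every control rat, and rats 2 and 3 were not. The log2 change against PAN was -0.70 with pioglitazone (95% interval from -1.33 to -0.07, adjusted p by limma 0.916) and -0.29 with GQ-16 (adjusted p by limma 0.844).

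F3 had values of 9.81, 17.6, 37.9 and 19.9 CPM with pioglitazone and 38.3, 15.4, 33.1 and 37.6 CPM with GQ-16. Pioglitazone rat 3 had the highest values of its group for both F3 and Plau and the lowest for Thbd, Tfpi and Plaur. The summed level of the 7 tubule markers was also highest in that rat, at 2136, 3349, 6270 and 2621 CPM in pioglitazone rats 1 to 4. In the GQ-16 rats it was 5228, 2975, 5362 and 3635 CPM. The part of tubule RNA in the F3 and Plau values was not tested. Thbd was 923, 603, 380 and 551 CPM with pioglitazone, the widest spread of any group, and 405, 464, 336 and 595 CPM with GQ-16. Its log2 change against PAN was 0.42 with pioglitazone (95% interval from -0.12 to 0.95, adjusted p by limma 0.916) and 0.0087 with GQ-16 (95% interval from -0.52 to 0.54, adjusted p by limma 0.995). The summed endothelial markers had a like range, 6395 to 11726 CPM with pioglitazone and 5859 to 7594 CPM with GQ-16, beside 5555 to 8741 CPM in PAN. Their part in the spread of Thbd was not tested.

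Tfpi lay between 67.5 and 98.5 CPM with pioglitazone and between 77.0 and 102 CPM with GQ-16. Plat ran from 708 to 1160 CPM and from 724 to 1510 CPM. Plaur ran from 43.8 to 82.2 CPM and from 37.3 to 65.7 CPM, Vwf from 10.8 to 16.2 CPM and from 8.15 to 21.7 CPM, and Procr from 2.04 to 3.03 CPM and from 2.39 to 3.41 CPM. All of these ranges overlapped PAN. Over the 9 genes the log2 changes against PAN ran from -0.70 to 0.42 for pioglitazone. For GQ-16 they lay between -0.53 and 0.31. The 95% intervals were between 0.614 wide for Tfpi and 1.83 wide for F3, so a change of 1.5-fold in F3 would not have been detectable in either direction.

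**Figure D4:**
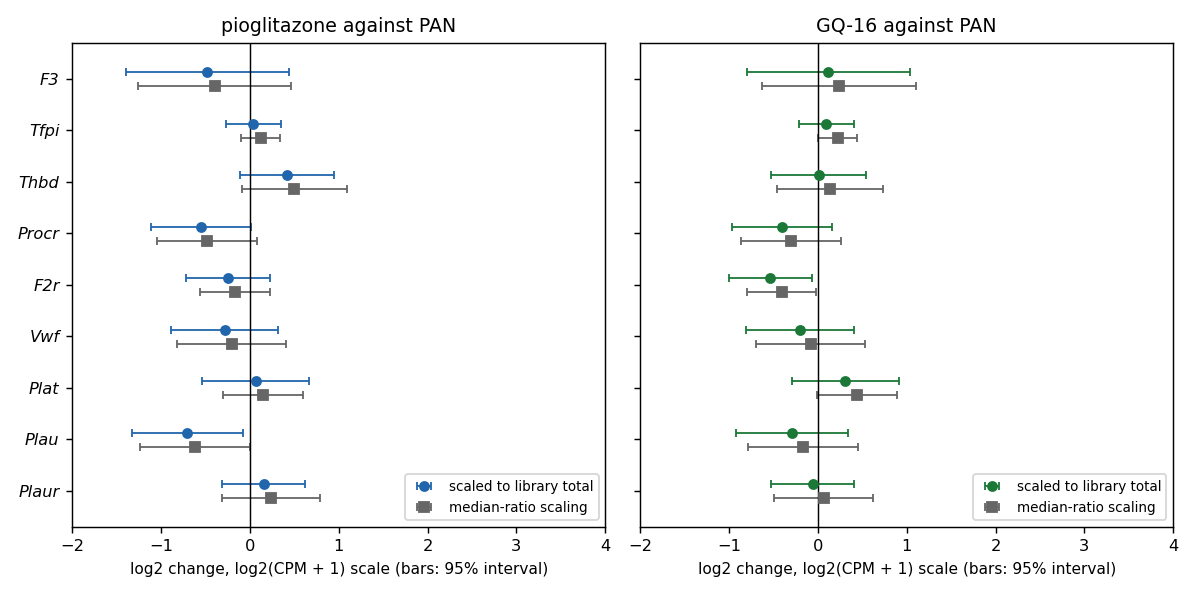
Log2 change of the 9 genes between each drug group and PAN (difference of group means of log2(CPM + 1), 4 rats a group), with 95% intervals as bars, under both scalings. The points of the 9 genes scaled to the library total lie between -0.70 and 0.42, none of them called.

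Serpine2 and Lrp1 had log2 changes of -0.84 and -0.85 with GQ-16 against PAN (adjusted p by limma 0.411 for both). All GQ-16 rats were below all PAN rats, which held for 3.47% of all genes. The naming rule took list genes by their adjusted p in PAN against control, which uses the same PAN rats. High values in those rats favour both the naming and a fall against them, so the share of all genes is not a like comparison. The other 7 genes that the naming rule took from the lists, Thbs1, Anxa2, S100a10, Anxa5, Pros1, Ggcx and Entpd1, overlapped with PAN.

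Between the 2 drugs 0 of 9 genes passed limma's test, beside 0% of all genes, and 0 were called by voom. An unadjusted p under 0.05 was reached by 0 of 9, beside 5.94% of all genes. The log2 differences, GQ-16 minus pioglitazone, ran from -0.41 for Thbd (95% interval from -0.94 to 0.12) to 0.59 for F3 (95% interval from -0.32 to 1.51). These intervals do not show that the drugs act alike. F2r was lower in every GQ-16 rat than in every pioglitazone rat, by 0.28 on the log2 scale (95% interval of the difference from -0.75 to 0.19, adjusted p by limma 0.999), beside 1.94% of all genes, and the groups overlapped under median-ratio scaling.

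Against control, which shows the level reached under treatment, F2r was the only 1 of the 9 genes changed with pioglitazone, beside 4.98% of all genes, and, with levels scaled to the library total, the only one whose groups did not overlap, higher with the drug, beside 13.1%. Under median-ratio scaling Vwf was also lower in every pioglitazone rat than in every control rat, beside 4.67% of all genes. The log2 change of F2r was 1.0 (SE 0.222, adjusted p by limma 0.0223) and 0.78 under median-ratio scaling (adjusted p by limma 0.0363). The F2r call was lost without control rat 2 or 3 or without pioglitazone rat 2 or 4, with limma's adjusted p-values of 0.0937, 0.0945, 0.0742 and 0.0598. Its log2 change was then 0.85, 0.86, 1.01 and 0.99. Among libraries under 30% mitochondrial reads the F2r change was 0.57 (adjusted p by limma 0.486). An unadjusted p under 0.05 was reached by 5 of the 9 genes, F2r and 4 that were not called, beside 28.5% of all genes. These were F3 with a log2 change of -0.97, Plau with -0.70, Vwf with -0.72 and Tfpi with 0.43 (adjusted p by limma 0.158, 0.146, 0.129 and 0.0899). With GQ-16 0 of 9 genes were changed by limma and 0 by voom, beside 0.151% of all genes. An unadjusted p under 0.05 was reached by 4 of 9, beside 23.9% of all genes. F2r had a log2 change of 0.72 (adjusted p by limma 0.109), Tfpi of 0.49 (adjusted p by limma 0.105), Plat of 0.79 (adjusted p by limma 0.135) and Vwf of -0.64 (adjusted p by limma 0.192). Without control rat 1, Tfpi, Plat and F2r were called (adjusted p by limma 0.0398, 0.0315 and 0.0246). The share of all genes called without that rat is not given here, so these calls cannot be set against the background. Tfpi and Procr were higher in every GQ-16 rat than in every control rat, beside 4.92% of all genes, and for Tfpi this held under both scalings. The control rats are the same ones as in the comparison of PAN with control.

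Ratios of 2 genes within a rat depend little on library scaling, and 3 were examined in 3 comparisons by exact permutation tests over the 70 assignments of 8 rats, for which the smallest two-sided p is 0.0286. All are given as log2 ratios, the difference of the log2(CPM + 1) values of both genes. The log2 ratio of Thbd to Procr was 7.25, 7.28, 7.48 and 7.91 in control and 4.92, 7.07, 7.19 and 6.55 in PAN. Each PAN rat was below each control rat, and the difference of -1.05 had an exact permutation p of 0.0286, the smallest possible, and 0.257 adjusted over the 9 tests, which misses 0.05. It was -0.54 without PAN rat 1. Relative to PAN the Thbd to Procr log2 ratio differed by 0.97 under pioglitazone and 0.41 under GQ-16, with overlapping groups and exact permutation p-values of 0.114 and 0.686. The log2 ratio of F3 to Tfpi, initiator to inhibitor, was -0.67 ± 0.673 in control and -1.55 ± 0.760 in PAN (SD, n = 4). That difference of -0.88 had an exact permutation p of 0.200 and the groups overlapped. Relative to PAN it differed by -0.52 under pioglitazone and 0.02 under GQ-16, with exact permutation p-values of 0.429 and 0.971. The log2 ratio of Plau to Plaur was 1.40 ± 0.515 in control and 1.44 ± 0.517 in PAN (SD, n = 4). Under pioglitazone it was 0.58 ± 1.01 and under GQ-16 1.21 ± 0.715. Exact permutation p-values ran from 0.171 to 0.886 for its 3 comparisons.

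**Figure D5:**
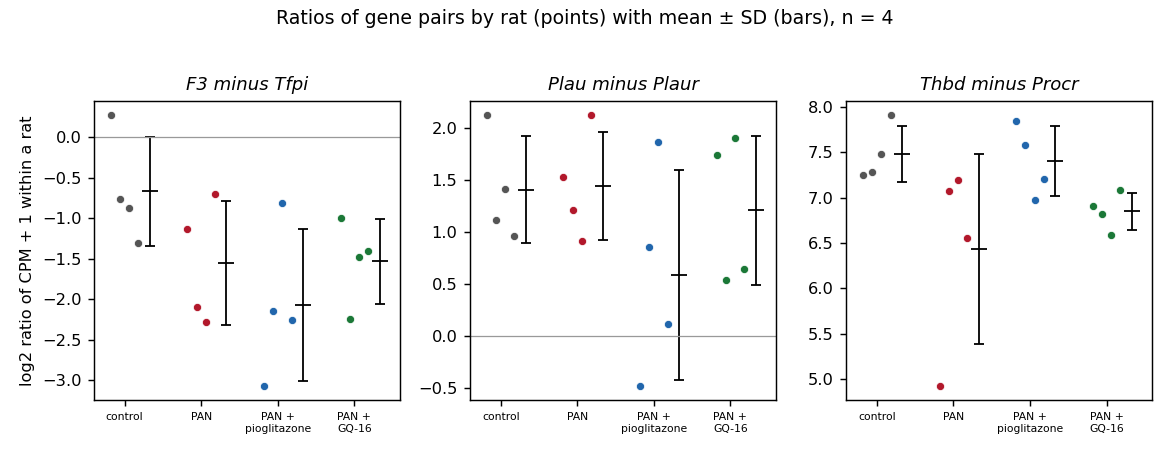
Log2 ratio of 2 genes within a rat, the difference of their log2(CPM + 1) values, with 1 point per rat and the mean ± SD of 4 rats as bars; the axes do not start at 0. The log2 ratio of Thbd to Procr lies between 4.92 and 7.19 in PAN and between 7.25 and 7.91 in control.

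For each of the 9 genes the genes closest to it in pattern were found as those whose log2(CPM + 1), centred on its own mean, differed least over the 16 rats, measured by the root mean square difference. For F2r these were Nr2f1 (0.13) and Septin4 (0.15), beside a root mean square deviation of F2r itself of 0.55. For Thbd they were Calcrl (0.12) and Thsd1 (0.13) beside 0.37, for Plat Tmem150c (0.15) and Arhgap29 (0.16) beside 0.47, and for Plau Kif12 (0.14) and Serpinf1 (0.15) beside 0.50. For Plaur they were Grasp and Mfng (both 0.11) beside 0.31, and for Tfpi Rfc1 and Plekho1 (both 0.10) beside 0.26. F3 and Vwf had no gene as near. Their closest were Slc44a4 (0.34, beside 0.69) and Asgr1 (0.28, beside 0.48). Procr was closest to Matk (0.17) and Arl11 (0.18), beside 0.45. The 16 rats differ in library depth and mitochondrial share, and no test was made of these distances.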

How the data were processed

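RNA of glomeruli from 16 rats, 4 in each of 4 groups, was sequenced. HISAT2, Subread, featureCounts, limma and the build Rnor_6.0 are named, without versions, in the submitters' processing notes. The deposited table holds log2 CPM, formed as log2 of (reads + 0.5) per 1000000, and this form was checked on the values. It gave back whole reads for 100% of values (tolerance 0.01) and the library total in 16 of 16 libraries. Every gene had at least 2 CPM in at least 8 libraries. Whether counting used strand is not given in the sources used here.

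Values were turned to CPM and tested as log2(CPM + 1) with limma 3.58.1 (R 4.3.3), a trended variance and 4 group means over all 16 rats, which share 1 estimate of the spread. P-values were adjusted by Benjamini-Hochberg over 13222 genes. Since the table held log2 CPM and not counts, the recovered reads entered only an alternative with voom. A mean of at least 1 CPM was required, which removed 0 genes. Fold changes of low genes such as Procr are understated by the added 1. A floor of 3 reads corresponds to 0.137 to 0.225 CPM, for counting error only. Libraries of one group differed by more than sampling noise, so none was counted as a duplicate. The fit was also run on simulated reads with the same relative spread between rats for every gene. They held no effect of mitochondrial share or library number, so the run cannot speak to these, and its outcome is not used here.

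The 9 genes, the lists and the cell type markers were chosen with earlier results of these data known. From each list up to 4 called genes were named, by smallest adjusted p. 1 gene of the fibrinolysis list and the ratio that needs it are not reported here, and list counts and the adjustment over ratios leave them out. The 6 promoter motifs were chosen after the results of the 9 genes were seen, and all 6 are reported. Alternatives were median-ratio scaling, quantile normalization, totals without mitochondrial genes (21 listed), a pseudocount of 0.1, the deposited log2 values, a mean of at least 10 CPM, only the groups compared, a term for library number (25 or higher against the rest), voom with median-ratio scaling, and leaving out each rat. Added after seeing the data were the covariate with median-ratio scaling, library numbers of 15 or lower only, and libraries under 30% mitochondrial reads only.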

Additional observations from a re-analysis of the deposited data

Results flagged for a closer look

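Within groups of 4 rats, 1 rat stood apart in 4 of 48 groups examined by Dixon's test on log2(CPM + 1). Chance flags about 1 in 20 groups, here 2.4. Thbd in control rat 4 was 9.41, beside 8.87 to 8.93 in the other 3 control rats. F3 in control rat 1 was 6.41, beside 4.88 to 5.02. F3 in GQ-16 rat 2 was 4.03, beside 5.09 to 5.30 in the other 3 rats with this drug, and this rat had one of the 3 libraries above 30% mitochondrial reads. F2r in GQ-16 rat 1 was 5.99, beside 6.76 to 6.85.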

How the results depend on the processing

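Of 642 values of the 9 genes under the alternatives other than leaving out each rat in turn, 599 kept their direction and their side of the threshold, 29 changed sign and 14 lost a call. All 29 belong to changes that were not called. Of 240 values of the genes named from the lists, mainly from comparisons with control, 181 stayed the same, 0 changed sign and 59 lost a call. The number of the 9 genes called in PAN against control was 1 under median-ratio scaling, quantile normalization, totals without mitochondrial genes, a mean of at least 10 CPM, only the groups compared, the library number covariate and voom, and 0 with the covariate and median-ratio scaling together, within library numbers of 15 or lower and under 30% mitochondrial reads. In pioglitazone against control it was 0 under the last 2 of these. Of all genes 8.63% were called in PAN against control under median-ratio scaling, and the shares under the other alternatives are not given here. For PAN against control, the log2 change of F3 was 0.23 within library numbers of 15 or lower, and with the covariate and median-ratio scaling that of Tfpi was -0.013 and that of Plat -0.18. The change of Plau was -0.30 under median-ratio scaling, -0.29 with quantile normalization, -0.31 without mitochondrial genes, -0.17 under 30% mitochondrial reads and -0.30 with voom. For GQ-16 against PAN, Thbd was -0.027 within library numbers of 15 or lower and -0.016 under 30% mitochondrial reads, and F3 was -0.73 in the former. Plaur was 0.066, 0.078, 0.068 and 0.062 under median-ratio scaling, quantile normalization, no mitochondrial genes and voom, 0.059 with the covariate, 0.12 with the covariate and median-ratio scaling, and 0.28 within library numbers of 15 or lower. For pioglitazone against control, under median-ratio scaling, quantile normalization, no mitochondrial genes, the covariate with median-ratio scaling and voom, Thbd was -0.046, -0.14, -0.057, -0.065 and -0.054, and Plaur was -0.095, -0.081, -0.11, -0.12 and -0.098. Vwf in GQ-16 against pioglitazone was -0.097 within library numbers of 15 or lower. The cause was not tested.

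With each rat left out in turn, the 9 genes gave 1 to 3 calls in PAN against control, 0 to 1 in pioglitazone against control and 0 to 3 in GQ-16 against control. The shares of all genes called in these fits are not given here, so the counts cannot be set against the background. Log2 changes whose sign turned ran from -0.14 to 0.11 for Plau and -0.17 to 0.12 for Plaur in PAN against control, and from -0.040 to 0.14 for Tfpi and -0.068 to 0.21 for Plat in pioglitazone against PAN. In GQ-16 against PAN they ran from -0.14 to 0.14 for Thbd, -0.079 to 0.41 for F3, -0.19 to 0.098 for Plaur and -0.39 to 0.045 for Vwf. They ran from -0.046 to 0.38 for Thbd and -0.024 to 0.28 for Plaur in pioglitazone against control, from -0.23 to 0.065 for Plaur in GQ-16 against control, and from -0.043 to 0.14 for Tfpi and -0.11 to 0.33 for Vwf in GQ-16 against pioglitazone. The ratio differences ran from -0.22 to 0.31 for F3 to Tfpi in GQ-16 against PAN. For Plau to Plaur they ran from -0.19 to 0.28 in PAN against control and -1.28 to -0.50 in pioglitazone against PAN. For Thbd to Procr they ran from -1.30 to -0.54 in PAN against control and -0.089 to 0.67 in GQ-16 against PAN. For the ratios a change of side was judged on the unadjusted exact permutation p. Their other 18 values, under another pseudocount and the deposited values, kept direction and side. Procr gave no value at a mean of at least 10 CPM. No paired analysis was possible because the labels give no replicate numbers shared between groups.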
